A study of Zea mays with 318 samples.

Results

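The BY and GY lines are 11 inbred lines of maize (8 BY lines and 3 GY lines) that belong by name to the Chinese high-oil breeding series, whose kernels are known for a large embryo and a high oil content. They were chosen by name alone, as every line of the series whose name starts with BY or GY followed by a digit, and make up 11 of 318 lines. The 11 lines are BY4839, BY4944, BY4960, BY807, BY809, BY813, BY815, BY855, GY1007, GY386 and GY462. They were compared with the lines whose names start with none of BY, GY, CIMBL, CML and GEMS, referred to below as the other lines, which are the lines left once these 11 and the 98 CIMBL, 40 CML and 46 GEMS lines are set aside. The CIMBL, CML and GEMS lines entered no test of the main comparison and are given beside it. Kernel oil was not used here, and the sample labels give no pedigree, so the name is all that marks a line as high-oil.

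RNA-seq was run on whole kernels taken 5 days after pollination (DAP), under 1 field condition and no treatment. Ears were selfed, seeds from 3 blocks were pooled for each line, and polyadenylated RNA was sequenced, so that each line is represented by 1 library. The unit of every comparison is therefore the line, and a P-value measures the spread between these lines. Expression levels are given as FPKM (fragments scaled to gene length and library size), and differences as the mean log2(FPKM + 1) of the BY/GY lines minus that of the other lines, which understates the change of weakly expressed genes.

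Maize oil is stored as triacylglycerol, mostly in the embryo. Fatty acids are made in plastids from acetyl-CoA, are desaturated there and in the endoplasmic reticulum, and are joined to glycerol in a chain of acyltransferase steps that ends with diacylglycerol acyltransferase (DGAT). Natural variation in a maize DGAT gene, dgat1-2, is known to affect kernel oil. Oil is then packed into oil bodies coated with oleosins. At 5 DAP a kernel is still mostly maternal tissue (nucellus and pericarp) around a very young endosperm and embryo. Because whole kernels were extracted, fewer cells of a type and less RNA per cell cannot be told apart in any value below.

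The total counts of the BY/GY lines ranged from 8550243 in BY807 to 25322060 in GY386 with a median of 14397555. The median log10 total count was 7.16 in the BY/GY lines and 7.13 in the other lines. The difference in mean log10 total count was 0.0099 (two-sided permutation test, P = 0.738). The 10 most abundant genes of the series took a mean of 1.86% of the counts of a BY/GY line and 2.11% of those of another line (P = 0.15, adjusted P = 0.199 over 4 line measures). On average 20368 genes exceeded 1 FPKM in a BY/GY line and 20788 in another line (adjusted P = 0.0446), while the medians were 20833 and 20835 and the SDs 1057 and 515.

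The BY/GY lines did stand apart in developmental consistency, which is Pearson's r between the FPKM of a line and the average of the 318 lines, taken over the 1000 most highly expressed genes. It was 0.684 ± 0.106 (SD, n = 11) in the BY/GY lines and 0.805 ± 0.0905 (SD) in the other lines, a difference of -0.121 (permutation test, P = 0.00025, adjusted P = 0.001 over 4 line measures). Of the 11 lines, 10 had an r below the median of the other lines, 0.830, and BY4944 alone had a higher r, 0.884. The lowest values were 0.524 in GY462, 0.542 in GY386, 0.604 in BY4839 and 0.614 in BY815, and only 2, 3, 5 and 5 of the other lines lay below them. Without BY4839, GY386 and GY462 the difference was -0.0736 (P = 0.0262). The part of r in the differences below was not tested beyond a fit with r as a covariate, which is given wherever it changes a call.

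**Figure D1:**
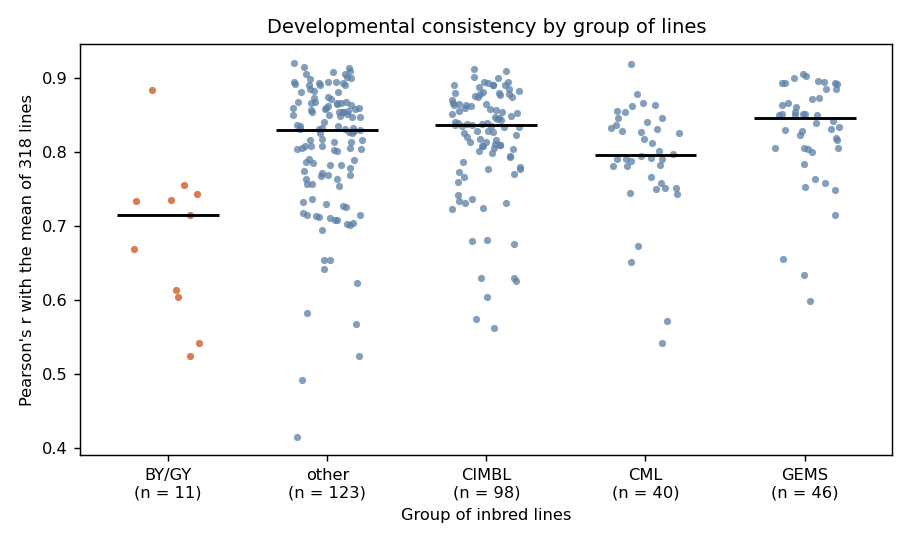
Developmental consistency of each inbred line (y axis, Pearson's r with the mean of 318 lines over 1000 genes) in the 11 BY/GY lines and the 4 other groups of lines (x axis), 1 point per line, with the median as a bar. The BY/GY lines range from 0.524 to 0.884 with a median of 0.715, below the medians of the other lines (0.830) and of the CIMBL (0.837), CML (0.796) and GEMS (0.847) lines.

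The 11 lines were not equally unlike each other. The correlation (Pearson's r) between log2(FPKM + 1) profiles of the 1000 tested genes that varied most had a median of 0.554 over the 55 pairs of BY/GY lines, 0.467 over the 1353 pairs of a BY/GY line with another line, and 0.536 over the 7503 pairs of other lines. The highest values were 0.9185 between BY813 and BY815, 0.877 between BY807 and BY809, and 0.843 between BY809 and BY815. BY807, BY809, BY813 and BY815 were the most alike set, at 0.719 to 0.9185 in every pair, and BY4944 and BY4960 were alike at 0.728. BY4839, GY386 and GY462 had an r of 0.53 to 0.58 with each other, near the median of all BY/GY pairs. They were less like most of the remaining lines, down to 0.167 between GY386 and GY1007. In 9 of the 11 lines the most similar line of both groups was another BY or GY line. The exceptions were BY4839, nearest to DAN3130 (r = 0.599), and GY1007, nearest to DAN360 (r = 0.621). No pedigree or genotype was used, and P-values are too small to the extent that lines share ancestors, which was not tested. A fit in which the 4 alike BY lines were averaged to 1 is given where it ends the call of a named gene, and it was chosen after the data had been seen.

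**Figure D2:**
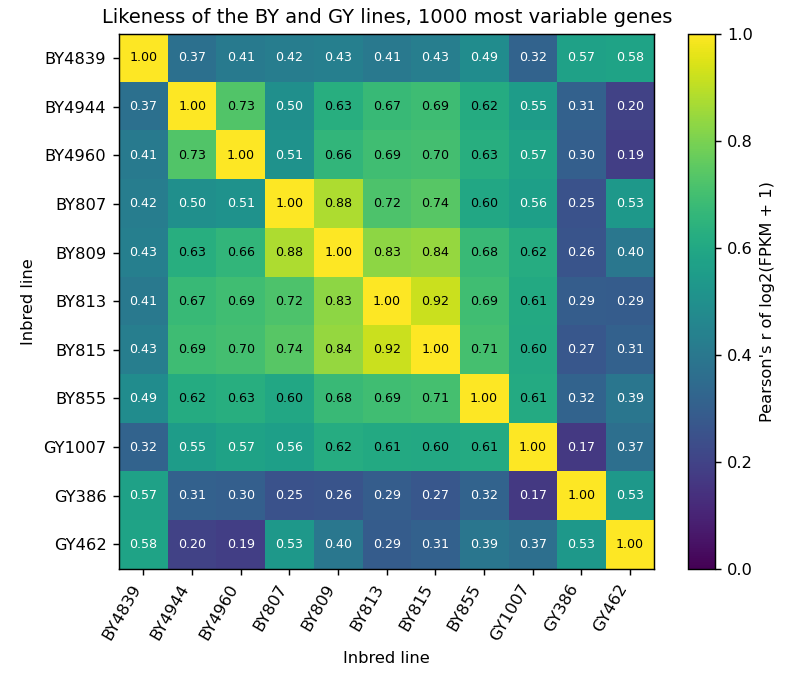
Likeness of the 11 BY and GY lines to each other, with a line on each axis and the correlation of their profiles (r, for the 1000 genes that varied most) as colour and number. BY807, BY809, BY813 and BY815 form the block of high values (0.72 to 0.92), and BY4839, GY386 and GY462 have low values with most of the remaining lines.

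Of the 21393 genes with a median above 1 FPKM in either group, 1910 (8.93%) differed between the BY/GY lines and the other lines at an adjusted P below 0.05 (limma, Benjamini-Hochberg over all genes tested, two-sided). Expression was higher in the BY/GY lines for 944 genes (4.41%) and lower for 966 (4.52%). The difference was at least 1 on the log2 scale in 279 genes that were higher (1.3%) and 274 that were lower (1.28%). The median difference over all tested genes was -0.0062. Genes that entered only through the group in which they were high have different medians by selection. Of 795 that entered through the BY/GY lines only 249 were called, and of 888 through the other lines only 212. Such genes are marked where they are named below, and no P-value of the main comparison is given for them. P-values of other fits, given for some of them, carry the same selection. Among the 19710 genes with a median above 1 FPKM in both groups, 695 (3.53%) were higher and 754 (3.83%) were lower. Differences in the same direction in all 11 lines were few. In all, 218 genes (1.02%) were above the median of the other lines in every BY/GY line, 168 of them called, and 237 (1.11%) were below it in every line, 182 of them called.

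The number of calls depended on which lines were used and on r. With developmental consistency as a covariate 810 genes (3.79%) were called, 716 of them among the 1910. With the 4 alike BY lines averaged to 1 there were 920 (4.3%), 788 of them among the 1910. The 8 BY lines alone gave 1145 calls (5.35%) and the 3 GY lines alone 1071 (5.01%), of which 929 and 397 were among the 1910 in the same direction. Against all remaining lines of the series, 2440 genes (11.4%) were called. Without GY462 there were 1237 calls. As a description, BY809 and BY815 were each above the median of the other lines in 910 of the 944 genes that were called higher, BY807 in 909, and GY386 in 638. In the 966 genes called lower, BY807 was below that median in 903 genes and BY4944 in 656. The calls were made from these same lines. Of all tested genes, 46.9% (GY386) to 52.8% (BY815) lay above that median in a line. The share below it ran from 47.2% (BY815) to 52.9% (GY386).

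Among the genes of oil synthesis, dgat1-2 was higher in the BY/GY lines and most of the remaining members did not pass the test. dgat1-2 (GRMZM2G169089), which codes for the enzyme of the last step of triacylglycerol assembly, ranged from 4.197 FPKM in BY809 to 10.5 FPKM in BY4960 with a median of 6.82 FPKM, against 1.54 to 9.72 FPKM and a median of 4.39 FPKM in the other lines. Of the 11 lines, 10 were above the median of the other lines, and BY4960 and BY855 were above every other line, while the groups overlapped. The difference was 0.55 ± 0.15 (SE, adjusted P = 0.0089). The medians of the CIMBL, CML and GEMS lines were 4.47, 4.91 and 3.46 FPKM, all below that of the BY/GY lines. dgat1-2 was the only gene of its list that could be matched by name. With developmental consistency as a covariate the difference was 0.44 with an adjusted P of 0.087, and with the 4 alike lines averaged it was 0.62 with an adjusted P of 0.0195.

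Neither of the 2 tested genes of fatty acid synthesis passed, where 8.93% of all tested genes were called. fatb (GRMZM5G829544), a thioesterase that releases saturated fatty acids from their carrier protein, had a median of 31.7 FPKM (16.5 to 42.1 FPKM) in the BY/GY lines and 35.5 FPKM in the other lines, with a difference of -0.18 (95% interval -0.49 to 0.14). acc1 (GRMZM5G858094), an acetyl-CoA carboxylase gene, had medians of 19.7 and 20.5 FPKM and a difference of -0.26 (95% interval -0.56 to 0.032).

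Of 6 tested desaturase genes, 1 was called higher and none lower, against 4.41% and 4.52% of all tested genes. The median difference of the list was 0.03. fad2 desaturates oleic to linoleic acid, the main fatty acid of maize oil. Its gene GRMZM2G056252 ranged from 31.4 FPKM in GY386 to 318 FPKM in BY807 with a median of 124 FPKM, and the other lines had a median of 111.3 FPKM. The difference was 0.0023 (95% interval -0.41 to 0.42). The second gene with this name, GRMZM2G064701, had medians of 29.8 and 22.3 FPKM and a difference of -0.06 (-0.50 to 0.38). In both genes BY4839 and GY386 were low and the 4 alike BY lines were above the median of the other lines. The gene that passed, GRMZM5G852502, carries the synonym SAD1, a name shared with a second gene and used for more than 1 enzyme, so its place among the desaturases is not certain. It had medians of 38.97 and 29.2 FPKM and a difference of 0.45 ± 0.12 (SE, adjusted P = 0.0108), and its adjusted P was 0.184 with developmental consistency, 0.0687 with the alike lines averaged and 0.0757 without GY462. The second gene named SAD1, GRMZM2G014376, had a difference of -0.13 and did not pass (adjusted P = 0.326).

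Genes of oil bodies were near the limit of detection in most lines at 5 DAP. None of the 3 oil body genes had a median above 1 FPKM in either group. ole1 (GRMZM2G337229), an oleosin gene, was between 0 and 0.252 FPKM in the BY/GY lines, from at most 3 counts in a line. oleosin4 (GRMZM2G480954) was at 5.23 FPKM in BY4960, from 67 counts, and at 1.89 FPKM in BY855, from 22 counts. In the remaining BY/GY lines it was at most 0.365 FPKM, from at most 3 counts. The summed level of the 3 genes had a median of 0.22 FPKM in the BY/GY lines (0 to 5.46 FPKM) and of 0.16 FPKM in the other lines (0 to 2.44 FPKM). The 5 matched regulators of seed maturation and aleurone fate had medians below 1 FPKM too. lec1 (GRMZM2G011789), a factor of embryo identity that raises oil when overexpressed in maize, had a median of 0 FPKM in both groups and at most 1 count in a BY/GY line. vp1 (GRMZM2G133398), a maturation factor, had medians of 0.0143 and 0.0183 FPKM, and nkd1 (GRMZM2G129261), a regulator of the aleurone, medians of 0.386 and 0.899 FPKM. The summed level of the 5 regulators had a median of 0.82 FPKM (0.43 to 2.53 FPKM) in the BY/GY lines and of 1.77 FPKM (0.39 to 6.86 FPKM) in the other lines. None of these 8 genes passed the filter of the main comparison.

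Other lipid genes did not pass, where 8.93% of all tested genes were called. The tested gene of lipid breakdown, mas1 (GRMZM2G102183), which codes for malate synthase of the glyoxylate cycle, had medians of 22.05 and 14.6 FPKM (adjusted P = 0.425). In the wax and cutin list gl8b (GRMZM2G087323) had medians of 7.61 and 7.05 FPKM. The 3 lipid transfer protein genes, among them ltp3 (GRMZM2G126397) with medians of 801 and 773 FPKM, were all uncalled, with a median difference of -0.19.

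**Figure D3:**
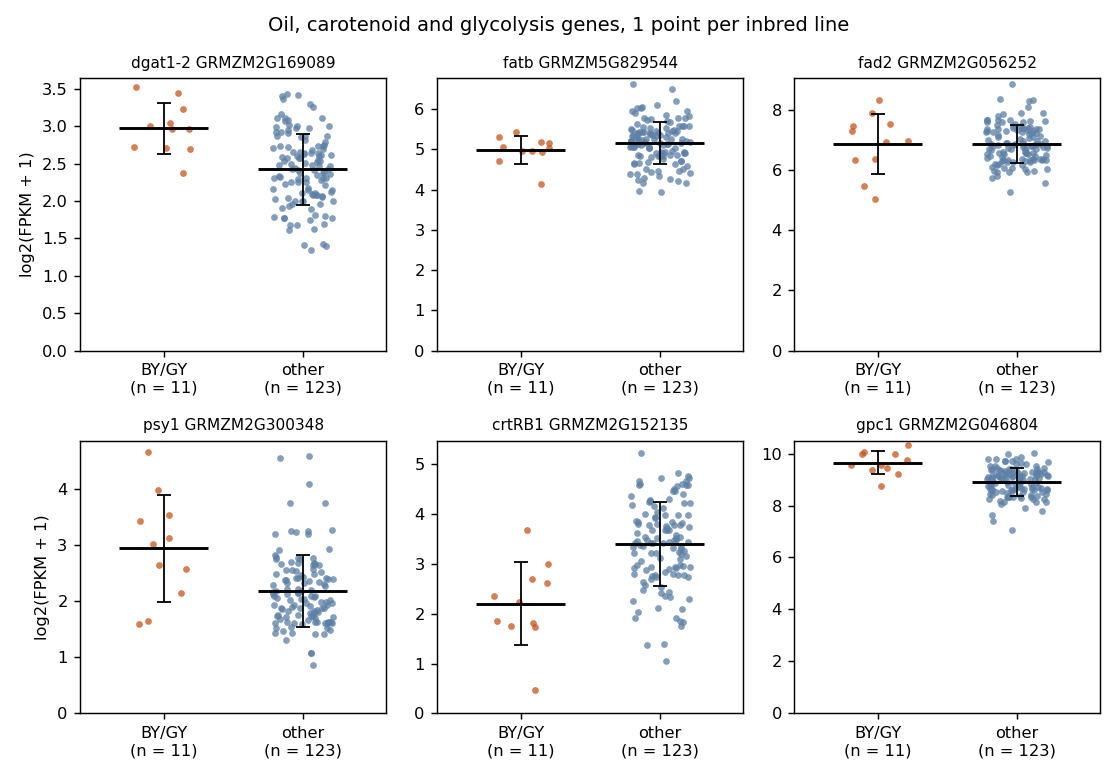
Expression level of 6 genes as log2(FPKM + 1) (y axis) in the 11 BY/GY lines and the other lines (x axis), 1 point per line, with the mean as a bar and 1 SD as the error bar. dgat1-2, psy1 and gpc1 lie higher and crtRB1 lower in the BY/GY lines with overlapping groups, and fatb and fad2 have means that differ by -0.18 and 0.0023.

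Of 8 tested carotenoid genes 1 was called higher and 1 lower, against 4.41% and 4.52% of all tested genes. Phytoene synthase makes the first committed compound of the pathway, and beta-carotene hydroxylase turns beta-carotene into xanthophylls further down. psy1 (GRMZM2G300348), the phytoene synthase gene of the yellow endosperm locus, ranged from 2.01 FPKM in BY4960 to 24.5 FPKM in GY462 with a median of 7.11 FPKM, against a median of 3.26 FPKM in the other lines. The difference was 0.75 ± 0.21 (SE, adjusted P = 0.0127), with 9 of the 11 lines above the median of the other lines. The 3 GY lines had the high values, with 14.9 FPKM in GY1007, 10.7 FPKM in GY386 and 24.5 FPKM in GY462, while the 8 BY lines lay between 2.01 and 9.83 FPKM. Against the other lines the GY lines differed by 1.88 (adjusted P = 0.00070) and the BY lines by 0.33 (adjusted P = 0.434), and the difference between BY and GY lines was not tested. The call for psy1 was lost without GY462 (difference 0.58, adjusted P = 0.0901) and with developmental consistency as a covariate (0.43, adjusted P = 0.27).

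crtRB1 (GRMZM2G152135), a beta-carotene hydroxylase gene, was lower. It ranged from 0.379 FPKM in BY4839 to 11.8 FPKM in GY1007 with a median of 3.68 FPKM, whereas the other lines had a median of 9.83 FPKM and a lowest value of 1.08 FPKM. Of the 11 lines, 10 were below the median of the other lines, and 6 were below their 10th percentile, 3.96 FPKM. The difference was -1.19 ± 0.26 (SE, adjusted P = 0.00094), and it was -1.14 with developmental consistency as a covariate (adjusted P = 0.0057) and -0.87 without BY4839, GY386 and GY462 (adjusted P = 0.0521). The remaining 6 of 8 tested carotenoid genes did not pass, among them psy2 (GRMZM2G149317) with medians of 2.04 and 1.77 FPKM, and the list had a median difference of -0.26. None of the 3 tested tocochromanol genes passed, where 8.93% of all tested genes were called. vte5 (GRMZM2G104538), a phytol kinase gene of tocopherol synthesis, had medians of 40.5 and 41.6 FPKM.

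Of 14 tested genes of sugar supply and glycolysis, 1 was called, against 8.93% of all tested genes. gpc1 (GRMZM2G046804), a cytosolic glyceraldehyde-3-phosphate dehydrogenase gene of glycolysis, ranged from 432 FPKM in BY855 to 1273 FPKM in GY462 with a median of 753 FPKM, against a median of 510 FPKM in the other lines. In all, 10 of 11 lines were above that median, and the difference was 0.73 ± 0.17 (SE, adjusted P = 0.0016), 0.79 with developmental consistency as a covariate. It missed the threshold without BY4839, GY386 and GY462 (0.55, adjusted P = 0.0584). Its relatives gpc3 (GRMZM2G071630) and gpc4 (GRMZM2G176307) had differences of 0.76 and 0.75 that did not pass (adjusted P = 0.196 and 0.351). For gpc2 (GRMZM2G180625) the difference was -0.27 (adjusted P = 0.0866). mn1 (GRMZM2G119689), the cell wall invertase that feeds the young endosperm, had a median of 31.1 FPKM (10.3 to 111.04 FPKM) in the BY/GY lines and 42.1 FPKM in the other lines, with a difference of -0.31 (95% interval -0.95 to 0.33).

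In the starch list 1 of 9 tested genes was called, against 8.93% of all tested genes, and it entered only through the BY/GY lines. It was GRMZM2G039942, which shares the name ae1 with GRMZM2G032628, and it was a weakly expressed gene, with medians of 1.11 and 0.269 FPKM and at most 26 counts in a BY/GY line (difference 0.66 ± 0.15 SE). In edgeR's test on counts its adjusted P was 0.0555. The second gene of this name had medians of 19.3 and 24.7 FPKM and did not pass (adjusted P = 0.632). bt2 (GRMZM2G068506), a subunit of the ADP-glucose pyrophosphorylase, had medians of 11.02 and 11.5 FPKM.

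Marker genes of the kernel compartments overlapped widely between the groups. Of all tested genes 8.93% were called, so a short list without a call does not show that its genes were alike. Of 13 genes of the basal transfer layer and embryo surrounding region, 3 were tested and none called, and the summed FPKM of the list had a median of 49.01 (26.3 to 122.5) in the BY/GY lines and 55.1 (11.5 to 197) in the other lines. The defining markers betl1 (GRMZM2G082785) and meg1 (GRMZM2G354335) had a median of 0 FPKM in both groups. In the endosperm storage list 5 of 14 genes were tested and none called, 6 of the 14 had a median of 0 FPKM in both groups, and the summed FPKM had medians of 89.7 (25.8 to 180.5) and 65.5 (29.1 to 308). None of 7 tested flavonoid genes passed, with a median difference of -0.30. The maternal ovule genes were abundant, with a summed FPKM of 1776 (1143 to 2624) in the BY/GY lines and 1661 (845 to 2498) in the other lines. Of 11 tested genes of this list 1 was called higher, against 4.41% of all tested genes. It was the MADS-box gene bde1 (GRMZM2G160565), with medians of 225 and 166 FPKM and a difference of 0.43 ± 0.15 (SE, adjusted P = 0.0497). This call was lost when any 1 line other than BY807, BY809 and BY813 was left out, with an adjusted P of up to 0.142, and with developmental consistency as a covariate (adjusted P = 0.167).

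Cell cycle, photosynthesis and heat shock genes gave 1 call each, from 13, 5 and 7 tested genes, against 8.93% of all tested genes. rbr1 (GRMZM2G003043), a retinoblastoma-related gene that restrains entry into the cell cycle, had medians of 15.8 and 12.8 FPKM (difference 0.35 ± 0.10 SE, adjusted P = 0.0143). The highest values were 30.1 FPKM in BY809 and 24.5 FPKM in BY813, and with the 4 alike lines averaged the difference was 0.17 (adjusted P = 0.399). The call was also lost without BY807, BY809, BY813 or BY855, with an adjusted P of up to 0.0905, and with developmental consistency as a covariate (adjusted P = 0.0861). The remaining 12 tested cell cycle genes did not pass, and the median difference of this list was 0.02. In the photosynthesis list psan1 (GRMZM2G080107), a photosystem I subunit gene, had medians of 2.22 and 1.46 FPKM (difference 0.59 ± 0.19 SE, adjusted P = 0.0377), and all 5 tested genes had a difference above 0 with a median of 0.54. That of rca1 (GRMZM2G162200) was only 0.041 (adjusted P = 0.931). All 7 heat shock genes also had a difference above 0, with a median of 1.10 against -0.0062 over all tested genes. For hsp18a (GRMZM2G404249) and the hsp70 gene GRMZM5G802801 it was only 0.067 and 0.13 (adjusted P = 0.948 and 0.88). Only another hsp70 gene, the chaperone gene GRMZM2G310431, passed. It ranged from 126 FPKM in GY386 to 1267 FPKM in BY809 with a median of 481 FPKM, against a median of 178.2 FPKM and a range of 2.84 to 1292 FPKM in the other lines (difference 1.499 ± 0.51 SE, adjusted P = 0.0472). The call for hsp70 was lost with developmental consistency as a covariate (adjusted P = 0.147), in edgeR's test on counts (adjusted P = 0.161), with the 4 alike lines averaged (adjusted P = 0.217) and without any 1 line other than BY4944 and GY386 (adjusted P of up to 0.103). The call for psan1 was lost in the same 3 fits (adjusted P = 0.129, 0.0729 and 0.171) and without BY4960, BY813, BY815, BY855 or GY1007 (adjusted P of up to 0.105). Near-identical heat shock genes can share reads, which were kept only where they aligned uniquely. Over the 19 lists, 10 of 98 tested genes were called, against 8.93% of all tested genes. Among the 10 was GRMZM2G039942, which entered only through the BY/GY lines. With developmental consistency as a covariate 3 were called, against 3.79% of all tested genes.

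**Figure D4:**
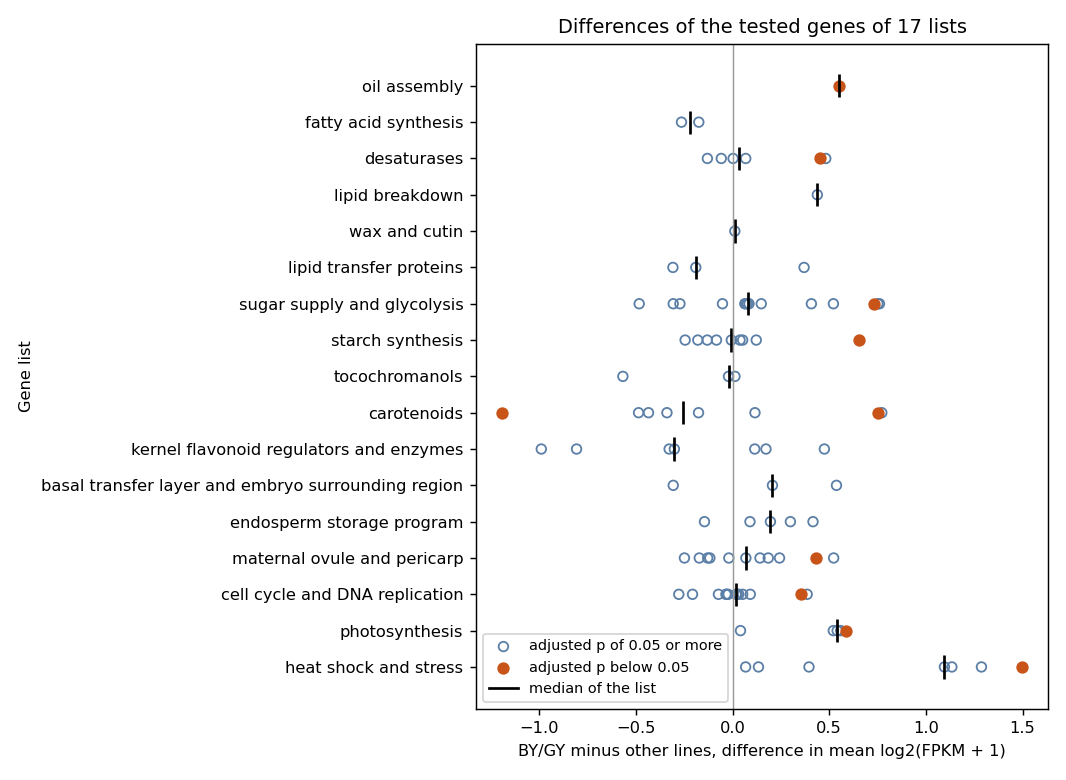
Difference in mean log2(FPKM + 1) between BY/GY and other lines (x axis) for the tested genes of the 17 lists with at least 1 tested gene (y axis). Filled points passed the test, open points did not, and the vertical bar is the median of the list, which is 1.10 for heat shock, 0.54 for photosynthesis and -0.26 for carotenoids.

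The 5 called genes with the smallest P-values all entered the comparison only through the BY/GY lines, and the gene table used here names none of them. Their medians differ by selection, so their values are a description. GRMZM2G165894 had a difference of 2.21 ± 0.15 (SE). It ranged from 3.90 FPKM in BY807 to 9.40 FPKM in GY1007 with a median of 6.94 FPKM, from 46 to 390 counts, and all 11 lines were above the highest of the other lines, 2.75 FPKM. The median of the other lines was 0.659 FPKM, and those of the CIMBL, CML and GEMS lines were 0.375, 0.170 and 0.850 FPKM with a highest value of 5.73 FPKM in a GEMS line. GRMZM2G087030 was above 1 FPKM in 9 of the 11 lines and in 3 of the other lines, with medians of 1.89 and 0.151 FPKM (difference 1.18 ± 0.11 SE). BY4839 with 0.66 FPKM and BY4944 with 0 FPKM were the exceptions.

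The remaining 3 genes, with a median of 0 FPKM in the other lines, were expressed in some of the BY/GY lines. GRMZM2G044372 was between 4.08 and 15.2 FPKM in BY4839, BY4960, BY807, BY809, BY813 and BY815, at most 0.19 FPKM in the remaining 5 lines, and at most 0.385 FPKM in the other lines (difference 1.79 ± 0.15 SE). GRMZM2G083984 was expressed in the same 6 lines, between 1.16 and 3.95 FPKM, was at 0 FPKM in the remaining 5, and reached no more than 0.0415 FPKM in the other lines. GRMZM2G439136 was expressed in BY807, BY809, BY813, BY815, BY855 and GY1007 with 1.38 to 8.33 FPKM, and was at 0 FPKM in the remaining 5 lines. All 3 genes also exceeded 1 FPKM in a few lines elsewhere in the series, in 5, 5 and 2 of the CIMBL, CML and GEMS lines together. The GY lines alone gave differences of -0.05, -0.00076 and 0.85 for these genes.

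Among the called genes with a name, PSK3 and per-1 had the largest differences upward. PSK3 (GRMZM2G084859), a precursor gene of the growth peptide phytosulfokine, ranged from 6.35 FPKM in GY386 to 258 FPKM in GY462 with a median of 56.6 FPKM, against 9.14 FPKM in the other lines (difference 2.70 ± 0.70 SE, adjusted P = 0.0062). per-1 (GRMZM2G129761) had medians of 17.9 and 1.42 FPKM, with BY815 (136 FPKM) and BY809 (82.5 FPKM) above every other line (difference 2.62 ± 0.55 SE, adjusted P = 0.00047). The yellow stripe-like gene ysl12 (GRMZM5G893444), of a family that transports metals bound to nicotianamine, ranged from 10.9 FPKM in GY386 to 438 FPKM in BY807 with a median of 127 FPKM, against 19.002 FPKM in the other lines (difference 1.76 ± 0.45 SE, adjusted P = 0.0058). The factors NAC61 (GRMZM2G003715), bHLH123 (GRMZM2G369629) and MYB94 (GRMZM2G139284) were higher by 1.599, 1.57 and 1.53, with medians of 108.4, 22.5 and 9.32 FPKM against 33.1, 5.84 and 2.06 FPKM. BY807 was the highest of the 11 lines in ysl12 and bHLH123, BY809 in MYB94, and GY386 the lowest in all 4 of the genes ysl12, NAC61, bHLH123 and MYB94.

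The remaining named genes that were higher were NAR2.2 (GRMZM2G163494, 11.6 against 3.31 FPKM), of a family of partner proteins of nitrate transporters, sat1 (GRMZM2G069203, 8.01 against 0.731 FPKM), which entered only through the BY/GY lines, the chitinase gene chiI (GRMZM2G145461, 18.7 against 1.001 FPKM) and bx1 (GRMZM2G085381, 17.1 against 1.88 FPKM), which starts the synthesis of benzoxazinoid defence compounds. Their differences were 1.57, 1.69, 1.93 and 1.65, and adjusted P was 0.0119 for NAR2.2, 0.0267 for chiI and 0.049 for bx1. chiI varied from 0.0265 FPKM in GY386 to 237 FPKM in GY1007, and its call was lost without BY807, BY809, BY813, BY815 or GY1007 (adjusted P of up to 0.107). That of bx1 was lost without any 1 line other than BY4960, BY807, BY809 and BY855 (adjusted P of up to 0.117). With the 4 alike lines averaged, adjusted P was 0.0544 for PSK3, 0.19 for ysl12, 0.1 for NAC61, 0.0595 for bHLH123, 0.233 for MYB94, 0.114 for sat1, 0.364 for chiI and 0.0532 for bx1, all above 0.05, whereas per-1 (0.042) and NAR2.2 (0.0486) kept their calls. In edgeR's test on counts the calls of PSK3, sat1, chiI and bx1 were lost as well (adjusted P = 0.0844, 0.0767, 0.0545 and 0.248), and with developmental consistency as a covariate those of MYB94 (adjusted P = 0.0726) and bx1 (adjusted P = 0.153).

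The 3 largest differences upward of all called genes were those of genes without a name, and none of them was called in edgeR's test on counts. GRMZM5G852505 was expressed in all 11 lines, between 50.04 and 104.8 FPKM, and its median was 0 FPKM in the other lines, of which 50 exceeded 1 FPKM and the highest reached 193 FPKM (difference 3.79 ± 0.89 SE). GRMZM5G847707 was also expressed in all 11 lines, with medians of 78.4 and 12.6 FPKM (difference 3.11, adjusted P = 0.0071). GRMZM2G018022 was between 48.3 and 94.3 FPKM in the 8 BY lines and between 0.188 and 0.536 FPKM in the 3 GY lines (difference 3.10), and with the 4 alike lines averaged its adjusted P was 0.0618. Both GRMZM5G852505 and GRMZM2G018022 entered only through the BY/GY lines. Of the other lines, 78 exceeded 1 FPKM for GRMZM5G847707 and 30 for GRMZM2G018022. In edgeR's test, which compares means of counts, adjusted P was 0.363, 0.198 and 0.195, in the order given.

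Downward, see2a and PDIL1-1 are described first. see2a (GRMZM2G081626), a gene of a vacuolar cysteine protease of the legumain type, was between 0 and 1.09 FPKM in 10 of the 11 lines and at 16.2 FPKM in GY1007, while the other lines had a median of 16.7 FPKM and exceeded 1 FPKM in all but 4 lines. The difference was -3.34 ± 0.32 (SE), and the gene entered only through the other lines. PDIL1-1 (GRMZM2G091481), a protein disulfide isomerase gene for the folding of secreted proteins, split the 11 lines. It was between 17.6 and 31.3 FPKM in BY4944, BY807, BY809, BY813, BY815 and BY855, below the lowest of the other lines (103.4 FPKM), and between 170 and 215 FPKM in the remaining 5 lines, where the median of the other lines was 223 FPKM. The difference was -1.85 ± 0.18 (SE, adjusted P = 1.5e-15) over all 11 lines, -2.44 for the BY lines and -0.28 for the GY lines, which did not pass (adjusted P = 0.513). At least 1 GEMS line was as low, with 20.4 FPKM.

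**Figure D5:**
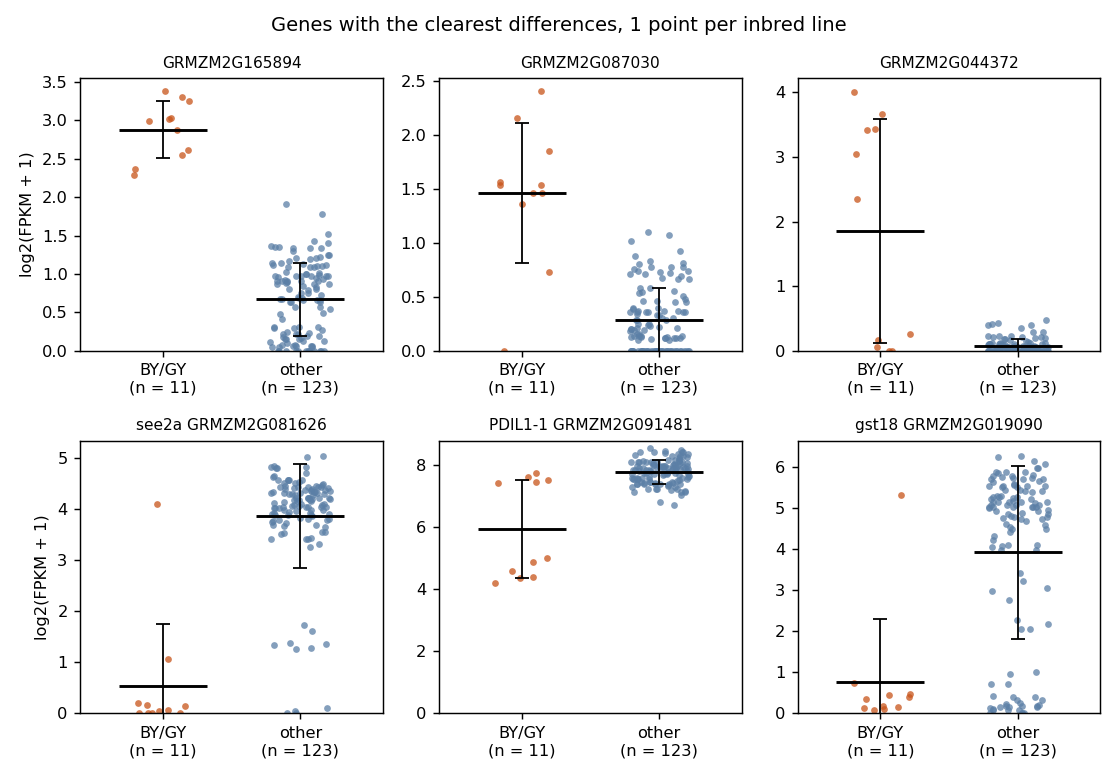
Expression level of 6 genes as log2(FPKM + 1) (y axis) in the 11 BY/GY lines and the other lines (x axis), 1 point per line, with the mean as a bar and 1 SD as the error bar. GRMZM2G165894 separates the groups fully, GRMZM2G044372 is at 4.08 FPKM or more in 6 BY/GY lines and at most 0.385 FPKM in the other lines, see2a and gst18 are low in all but 1 BY/GY line, and PDIL1-1 is low in 6 of the 11 lines.

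The glutathione S-transferase genes gst18 and gst10 also entered only through the other lines. gst18 (GRMZM2G019090) was between 0.066 and 0.685 FPKM in 10 lines and at 39.2 FPKM in BY4944, against a median of 29.4 FPKM in the other lines (difference -3.16 ± 0.64 SE). gst10 (GRMZM2G096153) was at 0 FPKM in 7 of the 11 lines and between 5.38 and 18.6 FPKM in BY4944, BY855, GY1007 and GY386, against a median of 14.8 FPKM (difference -2.30 ± 0.39 SE). The auxin-binding protein genes abp4 (GRMZM2G064371) and abp5 (GRMZM2G078508, listed under the symbol ABP) had medians of 1.19 and 2.66 FPKM, against 17.9 and 18.2 FPKM in the other lines. abp4 was high in BY4839 (26.3 FPKM) and GY462 (8.82 FPKM), and abp5 was low in all 11 lines, at no more than 4.14 FPKM. Their differences were -2.22 ± 0.48 and -2.15 ± 0.40 (SE), with adjusted P-values of 0.00076 and 6.9e-05. In the CIMBL, CML and GEMS lines the medians of abp4 were 30.9 to 32.2 FPKM and those of abp5 20.8 to 22.3 FPKM.

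Also lower were PP2C17 (GRMZM2G040452), a protein phosphatase 2C gene, with medians of 0.0286 and 9.002 FPKM, the ribosomal protein gene rpl30 (GRMZM2G027728), with 3.17 and 25.9 FPKM, and PDIL5-1 (GRMZM2G443655), with 1.07 and 22.07 FPKM. PP2C17 was above the median of the other lines in BY4944 (20.8 FPKM) and BY855 (15.01 FPKM), and at most 3.82 FPKM in the remaining BY/GY lines. rpl30 was above that median in BY4839 (74.6 FPKM) and BY4960 (33.4 FPKM). It was at 22.4 FPKM in BY855 and 21.9 FPKM in GY1007, and at most 3.69 FPKM in the remaining BY/GY lines. PDIL5-1 was at 102.3 FPKM in BY4944 and at most 1.91 FPKM in the remaining 10 lines, and its call was lost without any 1 line other than BY4944 and BY4960 (adjusted P of up to 0.067), with developmental consistency as a covariate (adjusted P = 0.178) and with the 4 alike lines averaged (adjusted P = 0.156). In the last of these fits PP2C17 was not called either (adjusted P = 0.0509). The precursor gene of the microRNA miR168b (zma-MIR168b) had medians of 0.681 and 7.25 FPKM, from at most 12 counts in a BY/GY line, with a difference of -2.04. miR168 is known in plants to act on the mRNA of ARGONAUTE1. GRMZM5G868423 was at 0 FPKM in 9 lines, at 18.1 FPKM in GY1007 and at 8.66 FPKM in GY462, against a median of 13.4 FPKM (difference -2.69). PP2C17, zma-MIR168b and GRMZM5G868423 entered only through the other lines. In edgeR's test on counts gst10, PP2C17, rpl30 and PDIL5-1 were not called (adjusted P = 0.0561, 0.13, 0.194 and 0.219).

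GRMZM2G121308 had the largest difference downward of all called genes. It was at 5641 FPKM in BY4944 and 1292 FPKM in GY1007, at 340 FPKM in BY855 and 332 FPKM in GY462, and between 1.40 and 72.8 FPKM in the remaining 7 lines, against a median of 3183 FPKM in the other lines (difference -4.34 ± 0.83 SE, adjusted P = 0.00011). This gene is among the 1000 from which developmental consistency was computed, and with r as a covariate the difference was -1.96 (adjusted P = 0.0696). Medians of 3885, 3093 and 4197 FPKM in the CIMBL, CML and GEMS lines were all above every BY/GY line except BY4944.

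Across all genes, 152 had a median above 1 FPKM in the BY/GY lines and below 0.1 FPKM in the other lines, 91 of them called, and 80 of the 152 were also below 0.1 FPKM in the medians of the CIMBL, CML and GEMS lines. The reverse held for 124 genes, 55 of them called, and 53 of the 124 had medians above 1 FPKM in the CIMBL, CML and GEMS lines too. In all, 3 genes had no count in any BY/GY line, and all 3 were called lower. Since the lists were drawn from medians of the same lines, these numbers are a description. Neighbouring genes were compared by their calls. Among 13977 genes that the RefSeq table places in order, 8.69% were called, and the next gene was called as well for 130 of 1212 called genes (10.7%), in the same direction for 77 of the 130. At an adjusted P below 0.01 these shares were 3.10% and 5.32%.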

How the data were processed

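The authors aligned paired reads to B73 RefGen_v3 with TopHat2, kept unique alignments, counted fragments per gene without regard to strand, and deposited raw counts per gene and line. The deposited FPKM values were computed by the authors from counts normalized with DESeq2. Reads of lines that differ from B73 can fail to align, and the part of this in any difference was not tested.

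Lines were grouped by name. limma 3.58.1 (R 4.3.3, trend and robust moderation) was fitted to log2(FPKM + 1) over the 21393 genes with a median above 1 FPKM in either group, with Benjamini-Hochberg adjustment, and edgeR 4.0.16 and DESeq2 1.42.0 on counts were alternatives. Line measures were tested with 100000 permutations. The fits were tested on simulated data. Of 39625 genes, 18539 matched 1 entry and 521 several entries of a RefSeq table, used for names and gene order only.

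The text names the 3 largest and 3 smallest differences among called genes, the 10 largest and 10 smallest among called genes with a name, called list members (at most 4 a list), fixed oil genes, genes detected in 1 group only (up to 3 each way) and the 5 smallest P-values. The table held no product names, so a gene name other than a clone, probe or EST label, or one in the study, took their place. Further list members were named after their values were seen. The groups, the lists and their members were chosen with earlier results of these data known.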

Additional observations from a re-analysis of the deposited data

How the results depend on the processing

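The 1910 calls became 810 with developmental consistency as a covariate, 749 with 10 principal components, 1145 with the BY lines only, 1071 with the GY lines only and 920 with the 4 alike BY lines averaged, and ranged from 1237 (without GY462) to 2239 (without BY4944) with 1 line left out. The 553 calls of at least 1 became 992 with log2(FPKM + 0.1), 322 with the covariate, 247 with 10 components and 837 with the GY lines only. The next gene of a called gene was called in 5.32% at an adjusted P of 0.01, where 3.10% of all placed genes were called (10.7% and 8.69% at 0.05), and the 10 calls in lists became 3 with the covariate. The cause of these changes was not tested. edgeR gave 1459 calls and DESeq2 1790, of which 1264 and 1365 were among the 1910. Of the 749 calls with 10 components, only 164 were among the 1910 in the same direction. In that fit 371 of the 1910 genes had the opposite sign.

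Among the named genes called in the main comparison, the sign turned with 10 components for GRMZM2G018022 (-2.004), GRMZM2G121308 (3.03), MYB94 (GRMZM2G139284, -0.13), ysl12 (GRMZM5G893444, -0.013), per-1 (GRMZM2G129761, -1.11), rbr1 (GRMZM2G003043, -0.13) and hsp70 (GRMZM2G310431, -0.49), and with the GY lines only for GRMZM2G018022 (-0.98), GRMZM2G044372 (-0.051) and GRMZM2G083984 (-0.00076), none of them past the threshold. Over 44 tested named genes and all alternatives, 1005 values were counted as unchanged and 208 kept the direction but lost the call. For a called gene, unchanged means that direction and call were kept. Both fad2 genes, fatb and mn1 are among the 44 but were not called in the main comparison. Their values were counted as unchanged without regard to sign. With 10 components 9 of the 44 genes were counted as unchanged, 28 kept the direction only and 7 turned. With the GY lines only these numbers were 14, 27 and 3. The calls lost with 10 components included those of dgat1-2, crtRB1 and gpc1 (limma, adjusted P = 0.321, 0.0788 and 0.143). That of dgat1-2 was also lost with the GY lines only (adjusted P = 0.355). The difference in developmental consistency kept its sign and its call, from -0.105 to -0.141 with 1 line left out and -0.0735 on the log scale. No paired analysis was possible because the groups are different inbred lines and no BY/GY line has a partner among the other lines. The fits with the alike lines averaged and without BY4839, GY386 and GY462 were chosen after seeing the data. With 11 lines and 1 library a line, a difference that missed the threshold may still exist.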
